A study of Mus musculus with 6 samples.

Results

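The genes described here are 35 genes of myelin and of mature oligodendrocytes, out of 32285 genes in the count table. They were listed by name, from what is known of the myelin sheath and the cells that make it, and no measured value was needed to apply the list. The list was chosen with earlier results of these data known. All 35 were found in the table, and all 35 had UMIs (tags that let every captured RNA molecule be counted a single time) in oligodendrocytes of 3-month-old mice. Of the 852338 UMIs that these genes had at 3 months, 89.6% came from oligodendrocytes, 1.29% from astroglial cells and 8.58% from barcodes that were not annotated.

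Oligodendrocytes are the cells that wrap axons of the central nervous system with myelin, a stack of membrane made of lipids and a small set of abundant proteins. They arise from precursor cells after birth in mice, pass through a newly formed stage and then switch on the genes of the compact sheath, a step that depends on the transcription factor Myrf. Some of the proteins in the list, such as carbonic anhydrase 2, transferrin and Sirt2, are known from other cells too, so a gene list of myelin is not a list of genes used by oligodendrocytes alone.

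The samples were cell suspensions of the striatum, enriched for the astrocyte surface antigen ACSA2 with magnetic beads and profiled by droplet-based 3′ single-cell RNA-seq. Groups were postnatal day 3 (P3), when the striatum holds immature astrocytes, and 3 months (3m), each with 3 libraries from wild-type male C57BL/6 mice and no treatment. Several animals were pooled per preparation according to the study's methods, so the spread between libraries is that between pools. The comparison of ages was designed to follow astrocyte maturation, and the oligodendrocytes are cells that the bead enrichment left in the suspension.

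Libraries held 1308 to 1769 barcodes at 3m and 2607 to 5582 at P3, with 5471573 to 10522151 and 32193875 to 37795021 UMIs. The study kept cells under 10% mitochondrial UMIs, a limit that 836 of the 1653 barcodes of 3m replicate 1 did not meet. Of 16653 barcode sequences, 37 were found in more than 1 library. The study's clusters named 1731 cells at 3m as oligodendrocytes (474, 735 and 522 in replicates 1, 2 and 3) and none at P3. All of them had UMIs of Mbp and 98.7% had UMIs of Mog, while 4 precursor markers summed to 21.0 to 47.2 CPM (counts per 1000000 UMIs of the cells summed) in their libraries. Clusters were made from these same counts, so levels between clusters are given as a description with no test.

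Promoter windows from RefSeq (GRCm38.p6, the assembly of the mm10 build that was used for mapping) were matched by symbol for 24 of 35 genes. No window was matched for Mbp, Fa2h, Myrf, Trf, Adamts4, Enpp2, Edil3, Car2, Ndrg1, Pex5l and Bcas1. Each window is the 250 bases before an annotated transcription start, written 5′ to 3′ on the strand of the gene. The first 3 are shown because Mog, Opalin and Mobp had 0, 0 and 2 UMIs in all barcodes of P3. The last 2 are shown because Cnp and Sirt2, with 10704 and 15992 UMIs at P3, were already measured in cells of that age. Capitals mark matches to CTGGCAC or CTGGTAC, the core bound by Myrf, and to ACAAAG, a core of Sox factors, read on either strand. The first core ends and the second begins with the letters AC, so that matches can overlap there. The windows lie at chr17:37023399-37023648 (minus strand, Mog), chr19:41077114-41077363 (minus strand, Opalin), chr9:120149492-120149741 (plus strand, Mobp), chr11:100574689-100574938 (plus strand, Cnp) and chr7:28766502-28766751 (plus strand, Sirt2).
Mog: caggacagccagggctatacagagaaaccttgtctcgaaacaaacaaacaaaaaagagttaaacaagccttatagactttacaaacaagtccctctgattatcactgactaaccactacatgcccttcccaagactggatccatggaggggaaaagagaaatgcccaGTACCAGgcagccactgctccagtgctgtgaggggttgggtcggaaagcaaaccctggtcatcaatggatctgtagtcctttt
Opalin: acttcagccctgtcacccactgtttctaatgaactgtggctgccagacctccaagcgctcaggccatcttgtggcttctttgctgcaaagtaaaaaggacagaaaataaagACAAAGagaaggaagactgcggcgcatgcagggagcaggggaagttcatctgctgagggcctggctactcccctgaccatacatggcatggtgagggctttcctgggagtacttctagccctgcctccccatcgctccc
Mobp: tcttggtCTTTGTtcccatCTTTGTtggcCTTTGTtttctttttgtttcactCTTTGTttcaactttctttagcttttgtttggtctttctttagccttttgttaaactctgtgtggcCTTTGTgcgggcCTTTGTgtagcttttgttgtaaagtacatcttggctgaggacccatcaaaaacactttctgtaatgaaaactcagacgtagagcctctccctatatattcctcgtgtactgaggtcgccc
Cnp: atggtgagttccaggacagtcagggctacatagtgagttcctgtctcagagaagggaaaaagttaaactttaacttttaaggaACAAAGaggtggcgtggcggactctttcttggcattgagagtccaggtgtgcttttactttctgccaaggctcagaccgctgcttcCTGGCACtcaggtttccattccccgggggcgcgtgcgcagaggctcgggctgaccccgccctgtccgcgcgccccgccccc
Sirt2: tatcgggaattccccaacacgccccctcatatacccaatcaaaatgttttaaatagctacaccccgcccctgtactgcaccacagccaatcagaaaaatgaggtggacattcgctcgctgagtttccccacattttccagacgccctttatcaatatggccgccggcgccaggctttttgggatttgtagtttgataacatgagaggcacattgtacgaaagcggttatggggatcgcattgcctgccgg

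The Myrf core was found in 5.93% of 32851 windows of this length and in 15.2% of the 33 windows of the listed genes, those of Cnp, Hapln2, Mag and Mog. The Sox core was found in 16.5% of all windows and in 21.2% of those of the listed genes, from Cnp, Klk6, Mag, Mobp, Opalin and Tspan2. Windows of 1 gene overlap, so these shares are descriptions. The Mobp window held 6 matches to the Sox core, a count reached by 1 of 32851 windows, and it was singled out after the match was seen. The Sirt2 window held neither set of letters.

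In oligodendrocytes the listed genes together took 6.93%, 6.69% and 6.84% of UMIs in replicates 1, 2 and 3. In single cells the share had a median of 6.53%, and 95 in 100 cells were at or above 4.52%. Counts of 3′ ends do not grow with transcript length, so levels of different genes are given as CPM with no length term. Ptgds, the enzyme that makes prostaglandin D2, was the highest at 13113, 15758 and 18699 CPM. It was followed by Mal, a lipid raft protein of the compact sheath, at 8590.5, 9816 and 9972 CPM. Adamts4, a matrix protease, was the lowest at 81.9, 69.2 and 62.7 CPM. The ranges of Ptgds and Mal did not overlap between genes, while Trf (5086 to 5654 CPM) and Mbp (4331 to 5070 CPM) were next to each other without a shared value.

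Among the structural proteins of the sheath, Mbp (myelin basic protein, which holds the cytoplasmic faces of the membrane together) had a mean of 4661 ± 376 CPM (SD, n = 3 libraries). Cnp, a phosphodiesterase of the non-compact myelin, had 3796 ± 673 CPM, which could not be separated from Car2, carbonic anhydrase 2, at 3796 ± 492 CPM. Cldn11, the claudin of the tight junctions between myelin turns, had 2150 ± 477 CPM. Mag, an adhesion molecule next to the axon, had 1888 ± 321 CPM. Mobp, a small basic protein of compact myelin, varied most between libraries, at 2714, 1325 and 1083 CPM, a ratio of 2.51 between the highest and the lowest. Replicate 1 was also the highest library for Mog (1683, 1314 and 1231 CPM), a surface glycoprotein of the outer sheath, and for Opalin (1812, 1194 and 1070 CPM), a transmembrane protein found in oligodendrocytes. In contrast, Ugt8a, the enzyme that makes galactosylceramide, differed little, at 826, 840 and 815 CPM. Tubb4a, the main β-tubulin of oligodendrocytes, was as even, at 2309, 2400 and 2433 CPM. Lower in the order, Myrf had 199.6 ± 21.8 CPM, and Enpp6, an enzyme that marks newly formed oligodendrocytes, had 100.2 ± 25.4 CPM.

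**Figure D1:**
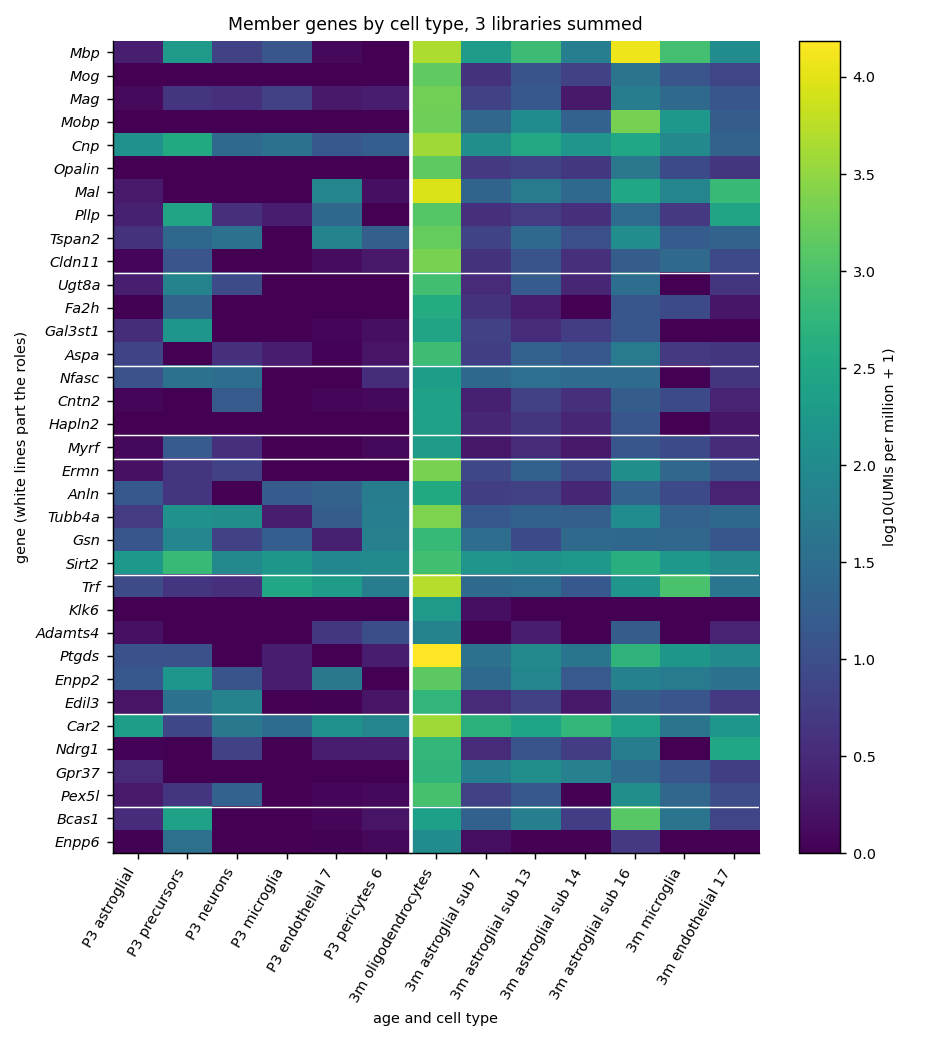
Level of the 35 genes (rows, grouped by role) in 6 cell types at P3 and 7 at 3m (columns), as log10(CPM + 1) of the 3 libraries summed. Mog, Opalin and Klk6 are at 0 in all P3 columns, the 3m oligodendrocytes are high in every row, and in astroglial sub-cluster 16 Mbp, Mobp and Bcas1 stand out from the other rows.

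Oligodendrocytes fell into 2 clusters of the study, cluster 2 (1228 cells) and cluster 10 (503 cells). The clusters divided largely by library, since replicate 1 had 458 cells in cluster 10 and 16 in cluster 2, while replicates 2 and 3 had 33 and 12 cells in cluster 10 and 702 and 510 in cluster 2. Cells of cluster 10 were also deeper, with a median of 8829 UMIs against 4586. Within each library, 15 of 35 genes were higher in cluster 10 in all 3 libraries, 2 were lower in all 3, and 18 differed in sign between libraries. Among the structural proteins of the membrane, 9 of 10 were higher in cluster 10 in all 3 libraries. The same counts were not made over all genes, so they describe the listed genes without a background. Ratios of replicate 1 rest on 16 cells of cluster 2, and those of replicate 3 on 12 cells of cluster 10. Mag, for example, was higher by 0.60, 1.22 and 0.68 on the log2 scale, and Sirt2 by 0.67, 1.25 and 0.66. Klk6, a secreted serine protease, was higher by 3.20, 0.92 and 0.48. The 2 genes that were lower in all libraries were Bcas1, at -0.67, -0.55 and -0.43, and Mbp, at -0.06, -0.08 and -0.38. Hapln2, a link protein of the node of Ranvier, gave 1.53 in replicate 1 but -0.94 and -1.63 in the others. The part of cell depth in these differences was not tested.

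**Figure D2:**
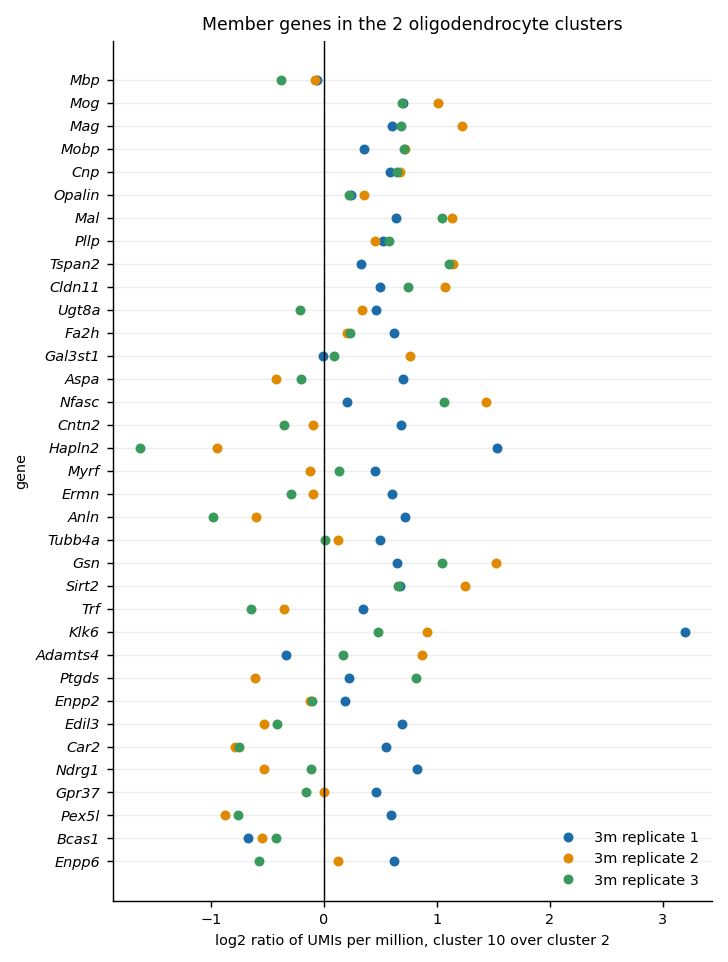
Log2 ratio of CPM, cluster 10 over cluster 2, for each gene (rows) and each 3m library (colours, 1 point per library). Nearly all points of replicate 1 lie right of 0, and in the other libraries most structural genes in the upper rows lie right of 0 while Car2, Pex5l and Edil3 lie left of it.

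At P3, 32 of 35 genes had at least 1 UMI, but the genes together took only 0.0613%, 0.0598% and 0.0668% of UMIs in the 3 libraries. Of the 66113 UMIs that they had at P3, astroglial cells held 71.6%, endothelial cluster 7 held 19.6% and oligodendrocyte precursors held 2.28%. Of the 105618765 UMIs of all genes at P3, the same cell types held 77526661, 18616494 and 594714. Mog, Opalin and Klk6 had no UMI in any of the 11960 barcodes of this age. Mobp and Hapln2 had 2 UMIs each, all of them in astroglial cells. Cldn11 and Enpp6 had 28 UMIs each.

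The genes seen at P3 were found in different cells. Of the UMIs of Sirt2, a deacetylase of tubulin, 81.4% were in astroglial cells, where the level was 134, 171 and 195 CPM in replicates 1, 2 and 3. Astroglial cells also held 84.7% of the UMIs of Car2, at 252, 191 and 217 CPM. Cnp followed at 139, 128 and 119 CPM in astroglial cells. As these cells held most UMIs of all genes at P3, such shares do not by themselves show a higher level there. In microglia of P3 Sirt2 was at 139, 146 and 214 CPM, Car2 at 39.2, 6.07 and 44.9 CPM and Cnp at 24.9, 30.4 and 51.8 CPM. By comparison, endothelial cluster 7 held 89.8% of the UMIs of Mal at P3, 73.6% of those of Trf (transferrin, the iron carrier) and 76.6% of those of Tspan2, a tetraspanin. In these endothelial cells Trf reached 171, 211 and 230 CPM. The 94 precursor cells held 71.4% of Enpp6 and 66.7% of Fa2h UMIs, although the counts behind these shares were only 28 and 18. Of the 35 genes, 24 had at least 1 UMI in precursors, as 23 did in endothelial cluster 7 and in pericytes. In precursors the highest was Sirt2 at 275, 519 and 1020 CPM in replicates 1, 2 and 3. Also in precursors, Bcas1, a protein of newly formed oligodendrocytes, had 176, 194 and 354 CPM. Pllp, plasmolipin of the sheath, had 132, 256 and 363 CPM, and Gal3st1, which makes sulfatide, had 99.2, 180 and 158 CPM. Mbp was uneven there at 22.0, 214 and 196 CPM, and Ugt8a ran from 0 to 126 CPM. In these precursors replicate 1, with 12 cells, was the lowest for Sirt2, Bcas1, Pllp, Gal3st1, Mbp and Ugt8a. Neurons of P3 (53 cells) had Tubb4a at 17.4, 120 and 192 CPM and Edil3, a secreted matrix protein, at 0, 70.5 and 173 CPM.

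The comparison of all barcodes asks how much of each gene the whole suspension held at the 2 ages. In such sums, fewer cells of a type and less RNA per cell cannot be told apart. All 35 genes passed the filter on low counts and all 35 were called higher at 3m (edgeR quasi-likelihood test, with an adjusted p up to 0.05 and a change of 1 or more on the log2 scale), against 18.4% of the 15407 genes tested. None was called lower by edgeR or DESeq2, against 16.1% of all genes. All 35 had an unadjusted edgeR p under 0.05 in the direction of 3m, against 9486 of all 15407 genes in either direction. Both ages were apart in every library for all 35 genes, a description, since the same count was not made over all genes tested. The median log2 fold change was 8.47 over the listed genes, unchanged with Mog, Opalin and Klk6 at the bound set by a floor of 3 UMIs, and 0.00 over all genes tested. Oligodendrocytes were annotated in the 3m libraries alone. Mog, Opalin and Klk6 had no UMI at P3, and Mobp and Hapln2 had 2 each. These genes passed the filter through their 3m counts and had to differ, so the count of calls is no support for the list.

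The 3 smallest changes were those of Sirt2, Anln and Car2. Sirt2 rose from 119, 159 and 172 CPM at P3 to 480, 527 and 461 CPM at 3m, a log2 fold change of 1.89 ± 0.18 (SE, edgeR adjusted p = 3.77e-05). Anln, a scaffold of septins and of dividing cells, rose from 18.3, 12.7 and 17.8 CPM to 205, 162 and 175 CPM (3.67 ± 0.17 on the log2 scale, edgeR adjusted p = 4.69e-07). Car2 rose from 215, 169 and 184 CPM to 2452, 2003 and 1967 CPM, a log2 fold change of 3.69 ± 0.19 (edgeR adjusted p = 9.35e-07). For these 3 genes the lowest 3m library was still above the highest P3 library. Among genes with more than 3 UMIs at P3, the largest change was that of Cldn11, at 0.186, 0.212 and 0.393 CPM at P3 and 1336, 1146 and 857 CPM at 3m. Its log2 fold change of 12.20 ± 0.36 (edgeR adjusted p = 8.11e-08) rests on 28 UMIs at P3. Ermn, a cytoskeletal protein of the myelin sheath, went from 0.342, 0.291 and 0.758 CPM to 1075, 1219 and 1152 CPM (11.45 ± 0.35 on the log2 scale, edgeR adjusted p = 8.7e-08). Myrf rose from 0.155, 0.265 and 0.393 CPM to 104, 125 and 99.2 CPM, with a log2 fold change of 8.80 ± 0.26 (edgeR adjusted p = 8.42e-08). Mog, Opalin and Klk6, at 0 in every P3 library, were at least 26520-fold, 26510-fold and 3162-fold higher at 3m when 3 UMIs are allowed for all P3 libraries together. Mobp, from 2 UMIs at P3, was 56830 times as high at 3m, with 95% counting bounds of 15730 and 469300. For Hapln2, also from 2 UMIs, the ratio was 7002 and the bounds were 1937 and 57840. By role, log2 fold changes ran from 5.86 to 10.32 for the 4 lipid and acetate enzymes and from 4.89 to 14.07 for the 6 secreted proteins.

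**Figure D3:**
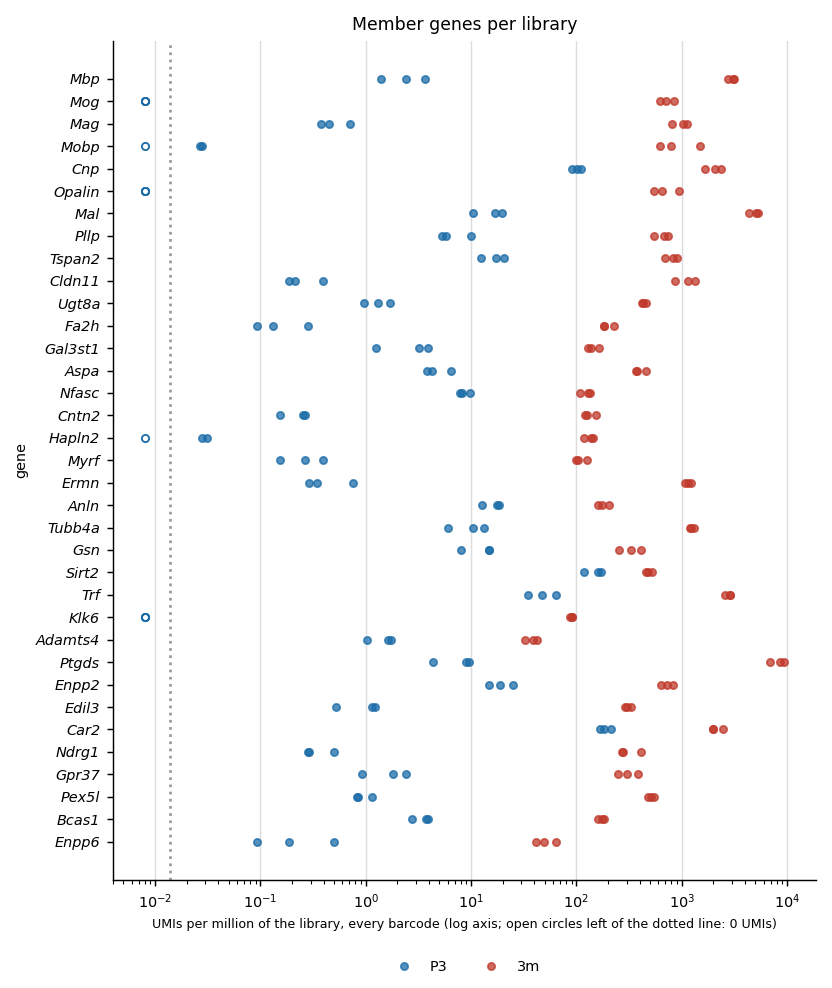
CPM of each gene (rows) in every library, over all barcodes, on a log axis. The P3 libraries (blue) lie left of the 3m libraries (red) for all 35 genes, and open circles mark libraries with 0 UMIs, as for all P3 libraries of Mog, Opalin and Klk6.

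Outside oligodendrocytes, the level of each gene at 3m was set against its level in the oligodendrocytes of the same library. RNA that leaks from broken cells can enter droplets of all cell types. Its make-up was not measured here, so the medians given next describe levels and do not set a level of leaked RNA. In astroglial cells the median over the 35 genes was 0.866%, 1.51% and 0.728% of the oligodendrocyte level in replicates 1, 2 and 3. Its mean was 1.03% ± 0.415 (SD, n = 3 libraries). In endothelial cluster 17 the medians were 0.342%, 2.32% and 0.300%, and in the 60 microglia they were 0, 2.29% and 0. All 3 cell types were thus highest in replicate 2, and in astroglial cells single genes lay on both sides of the median. Mog was at 0.359%, 0.867% and 0.276% of the oligodendrocyte level in astroglial cells, and Opalin at 0.334%, 0.454% and 0.761%. Mag and Mal were also under 1% there in every library. Mog had a UMI in 2.42% of 1118 astroglial cells, 3.33% of microglia and 3.68% of endothelial cluster 17, cells whose median depths were 3631, 3940 and 5934 UMIs. After thinning each cell to 1000 UMIs the shares were 0.544%, 0 and 0.613%. The part of free RNA in these shares was not tested.

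Of the 35 genes, 8 stood above this level in astroglial cells. The rule asked for at least 3 times the library's median in all 3 libraries, with the lower bound of the 95% counting interval above the median. Bcas1 was at 37.1%, 55.5% and 24.1% of its oligodendrocyte level and Mbp at 18.9%, 28.4% and 11.3%. Sirt2 was at 22.5%, 20.6% and 18.4%, and Gpr37, a receptor of the endothelin receptor-like family, at 10.5%, 15.02% and 16.2%. Car2 was at 13.1%, 10.8% and 12.7%, and Nfasc, the neurofascin of nodes and paranodes, at 12.4%, 13.2% and 14.6%. Mobp stood at 8.75%, 13.4% and 6.395%, and Cnp at 3.68%, 5.94% and 4.18%. The other 27 genes reached at most 5.26%, for Gsn (gelsolin) in replicate 3. Bcas1, Mbp and Mobp were highest in replicate 2 and lowest in replicate 3, whereas Sirt2, Car2 and Nfasc varied less between libraries.

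The genes above the median differed in where their UMIs lay among the astroglial sub-clusters of the study. Of the UMIs in 3m astroglial cells, sub-cluster 16 (121 of 1118 cells) held 71.8% for Mbp, 75.9% for Mobp and 74.9% for Bcas1. It held 14.1% for Sirt2, 9.73% for Cnp, 5.74% for Nfasc, 3.08% for Car2 and 2.15% for Gpr37. Of the UMIs of all genes in 3m astroglial cells, it held 248668 of 4473981. Against that part the shares of Sirt2 and Cnp were also high, while those of Car2 and Gpr37 were low. Leaving out this sub-cluster, a choice made after its values were seen, took the median of the 35 genes in astroglial cells from 1.03% to 0.637%.

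**Figure D4:**
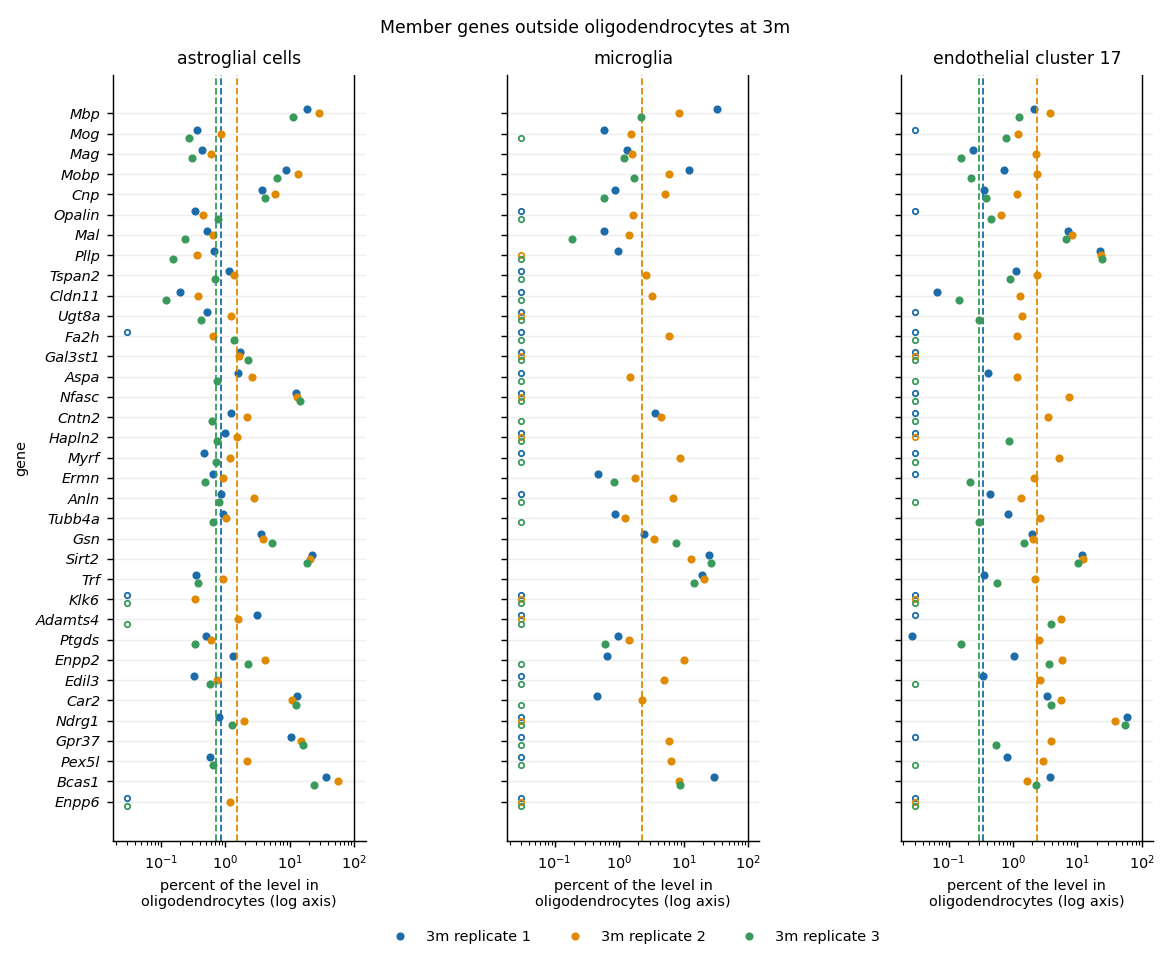
Level of each gene (rows) in 3 cell types at 3m as a percentage of its level in the oligodendrocytes of the same library (log axis), with 1 point per library, open circles at the left edge for 0 UMIs, dashed lines at the library medians where these are above 0, and a solid line at 100%. In astroglial cells Mbp, Bcas1, Sirt2, Gpr37, Car2 and Nfasc lie right of the medians in every library, while Trf does so in microglia and Mal, Pllp and Ndrg1 in endothelial cluster 17.

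The main adult sub-cluster, number 7, had 604 cells at 3m, of which replicate 1 gave only 14. There Car2 was at 399, 486 and 493 CPM, Sirt2 at 166, 179 and 130 CPM, and Cnp at 166, 129 and 101 CPM. Gpr37 had 199, 69.4 and 56.6 CPM, where the value of replicate 1 rests on 14 cells. Mbp had 66.5, 199 and 207 CPM there, and 23.2% of its cells had a UMI of Mbp. Sub-cluster 14, with 182 of its 184 cells from replicate 1, had 587 CPM of Car2, 167 CPM of Sirt2, 150 CPM of Cnp and 61.0 CPM of Mbp in that library. The values of Car2, Sirt2 and Cnp were near those of sub-cluster 7 in the other libraries. Mbp was below the 199 and 207 CPM of sub-cluster 7 in those libraries. It was near the 66.5 CPM of sub-cluster 7 in replicate 1, which rests on 14 cells. For sub-cluster 14 the library and the sub-cluster cannot be told apart. Sub-cluster 13 (202 cells, 168 from replicate 2) differed in a few genes. Cnp reached 435, 335 and 312 CPM, Enpp2 (autotaxin, which makes lysophosphatidic acid) 261, 82.4 and 61.5 CPM, and Mbp 2046, 792 and 466 CPM. Replicate 1, with 3 cells, was the highest library for all 3 genes. The rule for genes above the median was met in sub-cluster 7 by Car2, Cnp, Gpr37, Gsn, Mbp, Nfasc and Sirt2, where the median of replicate 1 was 0 and a UMI was enough, and in sub-cluster 13 by Bcas1, Enpp2, Gpr37, Mbp and Mobp. Of the cells of sub-cluster 13, 47.0% had a UMI of Mbp and 4.95% had one of Mog.

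Sub-cluster 16 was led by a few of the listed genes, with most of the rest low, and 34 of 35 had at least 1 UMI. It had 14, 89 and 18 cells in replicates 1, 2 and 3. Mbp stood at 25799, 9436 and 11097 CPM, which was 509%, 206% and 256% of its level in oligodendrocytes of the same library. Mobp stood at 6268, 1312 and 1830 CPM, or 231%, 99.0% and 169%. Bcas1 stood at 2445, 967 and 1380 CPM, or 1040%, 414% and 652%. All 121 cells had a UMI of Mbp, with a median of 17 per cell against 25 in oligodendrocytes, whose cells had more UMIs in all. Mobp was seen in 84.3% of cells and Bcas1 in 77.7%, against 98.2% and 67.4% of oligodendrocytes, shares that were not set to equal depth.

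Other structural genes of the myelin sheath were at a small part of their oligodendrocyte level in the same cells. Mog was at 1.55%, 3.44% and 2.44%, seen in 9 of 121 cells. Cldn11 was at 0.984%, 0.802% and 0 and was seen in 4 cells, against 99.3% of oligodendrocytes. Mag was at 9.38%, 1.51% and 1.90%, and Mal at 5.15%, 3.00% and 3.31%. Cnp, which stood above the median in astroglial cells as a whole, was at 10.3%, 7.42% and 10.3% here. The median over the 35 genes was 5.15%, 5.63% and 5.71%, higher than in the sub-clusters 7 and 13 of every library. Sirt2 was the only gene beside Mbp, Mobp and Bcas1 that passed the rule, at 91.5%, 43.1% and 46.3%. Of the 31 others, 29 were under 15% in every library. The exceptions were Adamts4, whose 95.3% in replicate 1 rests on few counts, with 4 UMIs in the whole sub-cluster, and Nfasc, with 33.8% in replicate 3. Without Mbp, Mobp and Bcas1 the remaining 32 genes took 0.426%, 0.266% and 0.363% of UMIs, against 6.13%, 6.07% and 6.27% in oligodendrocytes.

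Cells of sub-cluster 16 were shallow, with a median of 1688 UMIs against 3558 in sub-cluster 7 and 5420 in oligodendrocytes. The 8 astrocyte markers summed to 8038 to 11960 CPM in its libraries, below the 14880 to 15520 CPM of sub-cluster 7 and above the 391 to 809 CPM of oligodendrocytes. Slc1a3, the glial glutamate transporter, had a UMI in 74.4% of its cells, 96.9% of cells in sub-cluster 7 and 32.2% of oligodendrocytes. Scrublet, a doublet caller, marked none of its cells. In 8 of 121 cells the listed genes reached 4.52% of UMIs, the level exceeded by 95 in 100 oligodendrocytes, and none of the cells in sub-clusters 7, 13 and 14 did so. The part of depth, doublets and free RNA in these levels was not tested.

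**Figure D5:**
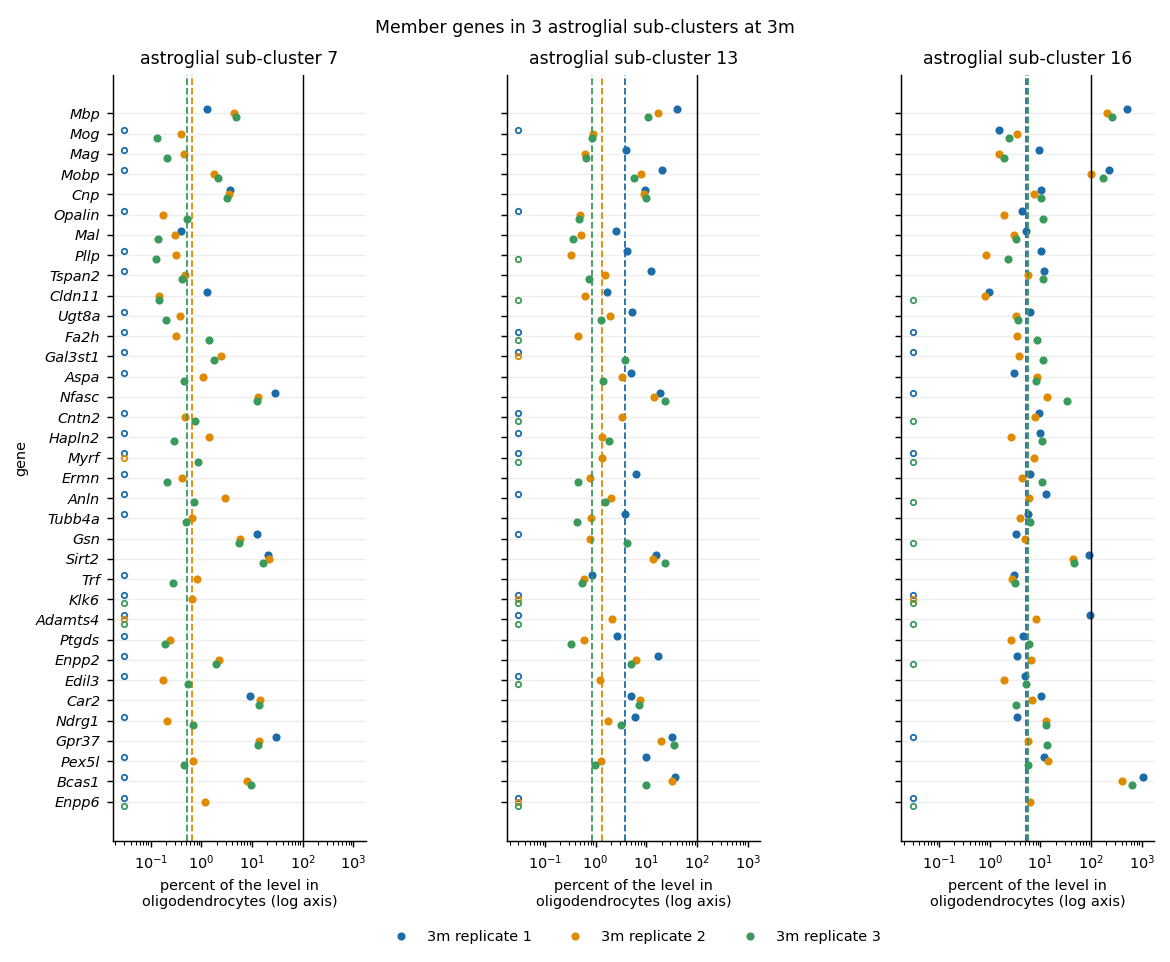
As in the plot of the 3 cell types, for astroglial sub-clusters 7, 13 and 16 at 3m. In sub-cluster 16 the points of Mbp and Bcas1 lie right of the solid line at 100% and Mobp lies on or right of it, while most other genes gather around the dashed medians between 5.15% and 5.71%.

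Between the ages, astroglial cells were compared to see which listed genes differ in cells that are not oligodendrocytes. The sub-clusters were nearly separate, since sub-clusters 13, 14 and 16 had cells at 3m alone and sub-cluster 7 had 1 cell at P3, so age and sub-cluster cannot be told apart. Of the 35 genes, 30 passed the filter on low counts, and Fa2h, Hapln2, Klk6, Adamts4 and Enpp6 did not. Of these, 27 were called higher at 3m against 15.8% of the 13530 genes tested, and 1 was called lower against 16.3% (edgeR, same thresholds). A low gene that passed only through the age where it was high had to differ, so the count covers the genes tested and not the list. The median log2 fold change was 2.85 over those 30 genes and -0.04 over all genes tested. With no scaling beyond library totals 25 were called higher, the median of all genes moved by -0.19, and the share of all calls that were higher went from 49.3% to 38.6%. The summed level of the 35 genes was 0.262%, 0.295% and 0.170% of UMIs in 3m astroglial cells and 0.0612%, 0.0586% and 0.0640% at P3, with no overlap.

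Mobp, Mbp and Bcas1 were among the genes with large folds in that comparison and were also those that sub-cluster 16 carried. Bcas1 was at 87.3, 130 and 50.9 CPM at 3m and 2.91, 2.19 and 2.36 CPM at P3, a log2 fold change of 5.37 ± 0.30 (edgeR adjusted p = 2.67e-08), which became 3.42 without sub-cluster 16 (edgeR adjusted p = 2.56e-05). For Mbp the log2 fold change went from 9.70 to 7.90 without it, and for Mobp from 12.34 to 10.30. Mobp had 2 UMIs in P3 astroglial cells, and its ratio of CPM was 6100 with a 95% counting interval of 1682 to 50460. In all, leaving out sub-cluster 16 moved 12 of 30 folds by over 1.5 times, and Gal3st1 and Aspa were then no longer called (edgeR adjusted p = 0.0616 and 0.0932). Gpr37 was not among them. It stood at 70.0, 75.4 and 71.3 CPM at 3m and 1.34, 1.86 and 3.46 CPM at P3, and its log2 fold change was 5.22 ± 0.28 (edgeR adjusted p = 1.64e-08) and 5.25 without sub-cluster 16.

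Nfasc was at 28.5, 27.7 and 25.8 CPM at 3m and 11.0, 10.9 and 10.6 CPM at P3 (log2 fold change 1.52 ± 0.19, edgeR adjusted p = 2.11e-05). Car2 was at 570, 375 and 452 CPM against 252, 191 and 217 CPM (1.27 ± 0.19, edgeR adjusted p = 0.000132). In cells past a stricter filter its log2 fold change was 0.89 and no longer reached the threshold of 1. Ptgds had 65.7, 93.8 and 63.8 CPM at 3m and 6.09, 11.8 and 12.2 CPM at P3 (3.08 ± 0.27, edgeR adjusted p = 1.28e-06). Its 3m level was 0.501%, 0.595% and 0.341% of that in oligodendrocytes, below the medians of the 35 genes. Mog and Opalin, with no UMI in P3 astroglial cells, were at least 191-fold and 168-fold higher at 3m by a floor of 3 UMIs over the group, and rest on 33 and 29 UMIs.

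Sirt2, Cnp and Anln were not called higher. Sirt2 stood at 186, 173 and 143 CPM at 3m and 134, 171 and 195 CPM at P3 with overlapping ranges, and its log2 fold change was 0.19 ± 0.18 (edgeR adjusted p = 0.412). Cnp was at 167, 217 and 134 CPM against 139, 128 and 119 CPM, also with overlap, and a log2 fold change of 0.62 ± 0.19 (edgeR adjusted p = 0.0172) was under the threshold of 1. Anln was lower at 3m, at 3.46, 8.13 and 2.72 CPM against 14.1, 11.6 and 14.4 CPM (log2 fold change -1.20 ± 0.33, edgeR adjusted p = 0.00922). The 4 cycling markers summed to 365 to 474 CPM in P3 astroglial cells and at most 0.542 CPM at 3m, and their part in the Anln values was not tested. Without 3m replicate 3 the Anln call was lost, at -0.97. Calls of Gal3st1, Aspa (which splits N-acetylaspartate), Myrf and Enpp2 also hung on a library. Gal3st1 missed the threshold when each of the 3m libraries was left out (adjusted p 0.0628, 0.0978 and 0.163 with edgeR). Aspa missed it when 3m replicate 1, 3m replicate 2 and P3 replicate 2 were in turn left out, at log2 fold changes of 1.02, 0.65 and 1.06, and Myrf missed it without 3m replicate 2 (edgeR adjusted p = 0.0887). Enpp2 came to a log2 fold change of 1.00 without 3m replicate 2, just under the threshold.

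Microglia were a small cluster seen at both ages, with 60 cells at 3m and 124 at P3, and their 10 markers summed to 31480 to 42160 and 18410 to 21690 CPM. Only 4 of the listed genes passed the filter there, so 31 were not tested. Mbp and Ptgds were at or near 0 at P3 and passed through their counts at 3m, so that they had to differ, and the count of calls is no support for the list. Of the 4, Mbp, Ptgds and Trf were called higher at 3m, against 6.68% of 2679 genes tested, and none was called lower, against 3.43%. An unadjusted edgeR p under 0.05 was found for 3 of the 4, all of them higher at 3m. Over all 2679 genes it was found for 719, in either direction. DESeq2 likewise called 3 higher and 0 lower. Without scaling beyond library totals the share of all calls that were higher went from 66.1% to 52%, and the listed genes called were 3 again. Trf had 968, 1072 and 824 CPM at 3m and 328, 291 and 307 CPM at P3 (log2 fold change 1.76 ± 0.22, edgeR adjusted p = 0.00015). Its 3m level was 19.0%, 20.5% and 14.6% of that in oligodendrocytes, and 54 of 60 cells had a UMI, against 7.42% of astroglial cells, or 55.0% against 2.72% after thinning to 1000 UMIs. The 3m libraries all lay above those of P3, and the UMIs were spread over most cells.

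In contrast, Mbp in microglia was uneven. It had 1689, 397 and 93.6 CPM at 3m and 0, 9.11 and 27.6 CPM at P3 (log2 fold change 6.00 ± 0.84, edgeR adjusted p = 0.000312). Of the 171 UMIs in replicate 1, 140 came from 1 of 20 cells, and without that cell the level of the library was 331 CPM. Ptgds had 128, 228 and 112 CPM at 3m and 0, 3.04 and 0 CPM at P3, with UMIs in 15 of 60 cells and at most 1.45% of the oligodendrocyte level. Sirt2 was at 207, 109 and 206 CPM at 3m and 139, 146 and 214 CPM at P3 with overlap, and the difference was not called (log2 fold change 0.15 ± 0.31, edgeR adjusted p = 0.799). Since the medians of replicates 1 and 3 were 0 in microglia, the rule for genes above the median asked only for a UMI there, and it was met by Mbp, Sirt2 and Trf. Mobp was at 12.4%, 5.99% and 1.73% of the oligodendrocyte level, from 43 UMIs in 7 cells. Bcas1 was at 29.4%, 8.50% and 8.85%, from 10 UMIs in 5 cells.

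Endothelial cluster 17 had 163 cells at 3m and 1 at P3, while endothelial cluster 7 had 605 cells at P3 and none at 3m, so no test of age was run. Cluster 17 had all 5 endothelial markers at 8745 to 14050 CPM, but also all 7 mural markers at 6168 to 7051 CPM and haemoglobin genes at 19160 to 42600 CPM. Against the oligodendrocyte level, 4 genes stood above the median by the rule in all 3 libraries. Ndrg1, a protein induced by low oxygen and differentiation, was at 58.9%, 37.9% and 54.2%, with 438, 187 and 258 CPM. Pllp was at 22.7%, 23.1% and 24.4%, with 235, 307 and 316 CPM. Mal was at 7.14%, 8.29% and 6.64%, with 614, 813 and 662 CPM. Sirt2 was at 11.9%, 12.1% and 10.3%. The other 31 genes were at most at 7.45%. In cluster 7 of P3, where no oligodendrocytes were found, Mal was at 72.8, 82.4 and 83.3 CPM, Pllp at 18.9, 21.4 and 30.9 CPM and Ndrg1 at 1.99, 1.19 and 0.406 CPM.

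Among the 16 pericytes of cluster 6 at 3m, Ptgds had 133, 8389 and 16929 CPM in replicates 1, 2 and 3, with 362 UMIs in 5 cells and 241 of them in 1 cell. Trf had 44.5, 1243 and 1279 CPM in the same cells. Mbp, Mobp, Mog, Mag and Cldn11 had no UMI in these cells (48566 UMIs of all genes). At P3, with 628 pericytes, Trf stood at 53.8, 50.9 and 64.8 CPM.

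A further 25 genes of the same programme, listed for comparison, were chosen with earlier results of these data known. In all barcodes 22 were called higher, against 18.4% of all genes tested, and 0 lower, against 16.1%. Their median log2 fold change was 5.01. Olig2, Olig1 and Tcf7l2, transcription factors that precursors and other glia use too, were not called, at log2 fold changes of -0.12, 0.69 and 0.28. In astroglial cells 21 of the 25 were tested, with a median of 1.67. Of these, 14 were called higher and 2 lower, against 15.8% and 16.3% of all genes tested. The 2 called lower at 3m were Olig2 (-3.19) and Olig1 (-2.46). In microglia 6 were tested, of which Apod and Pmp22 were called higher, against 6.68% of all genes tested, and none lower, against 3.43%. Apod had no UMI in P3 microglia and passed the filter through its 3m counts, so it had to differ. Genes of that list with high levels in oligodendrocytes included Cryab, Apod, Qdpr and Sept4. Cryab, a small heat shock protein, had 6350, 6268 and 5831 CPM there. Apod, a lipid carrier, had 4351, 2442 and 2429 CPM, Qdpr, which recycles tetrahydrobiopterin, 2972, 2503 and 2586 CPM, and Sept4, a septin of myelin, 2882, 2178 and 2219 CPM. In sub-cluster 16 Plekhb1, a membrane protein chosen for mention after its value was seen, was at 279%, 162% and 188% of its oligodendrocyte level. Tcf7l2 was at 84.3%, 127% and 209% and Qdpr at 87.5%, 38.4% and 47.6%, also chosen after their values were seen.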

How the data were processed

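The deposited table held raw UMI counts per gene and barcode. Reads had been mapped by the authors against mm10 and UMIs counted with Cell Ranger, followed by merging of 6 filtered matrices in Seurat (version 3.1.1 in the submitters' processing notes) without normalization. Cell types were those of the deposited annotation of 14373 cells, which passed limits of 500 genes and 10% mitochondrial UMIs. Barcodes left out there numbered 2317 and entered only sums over all barcodes.

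UMIs were summed per library, and ages were compared with edgeR's quasi-likelihood test (edgeR 4.0.16, R 4.3.3, TMM, filterByExpr) over all genes, two-sided, with Benjamini-Hochberg adjustment. Calls needed an adjusted p up to 0.05 and a change of 1 or more on the log2 scale. The 25 further genes and all members and lists were chosen with earlier results of these data known. All 35 genes are named, and those above the median of a cell type follow the rule given in the text. Fits were tested on simulated data with known changes.

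Doublets were not removed. With scanpy 1.11.5, the Scrublet caller marked 29 of 1731 oligodendrocytes and 0 of 1118 astroglial cells at 3m, and 3 of 8874 astroglial cells at P3, and no result rests on its calls. Intervals and floors (3 UMIs) cover counting error only, and 3m astroglial sums held 4473981 UMIs against 77526661 at P3. Alternatives were RLE and no scaling, no gene filter, DESeq2 (1.42.0), thinning, other cell filters and leaving out each library. The labels give no batch. Coordinates of windows are 1-based.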

Additional observations from a re-analysis of the deposited data

How the results depend on the processing

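In all barcodes the 35 calls held under every alternative run, from another scaling to leaving out any library. In astroglial cells 27 genes were called higher of 30 tested, and 17 of 23 with a stricter cell filter, 16 of 23 in telencephalic sub-clusters and 14 of 18 after thinning to the smallest library, where fewer genes passed the filter. Leaving out each library gave 19 to 26, with 23 to 32 genes tested. The 1 gene called lower became 0 with the stricter filter, after thinning and without 3m replicate 3, and the range over left-out libraries was 0 to 1. In microglia the 3 genes called higher of 4 tested became 10 of 27 with no gene filter, 1 of 2 with the stricter filter and 1 of 1 after thinning. Leaving out each library gave 3 to 5, with 5 of 8 without 3m replicate 3.

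Sirt2, never called outside all barcodes, changed sign in astroglial cells with the stricter filter (-0.07) and in microglia with no gene filter (-0.13), with the stricter filter (-0.03) and without 3m replicate 1 (-0.11, in a range of -0.11 to 0.35 over left-out libraries). The cause was not tested. Under the alternatives the relative medians ran from 0.637% to 1.19% in astroglial cells, 0 to 1.15% in microglia and 0.321% to 1.33% in endothelial cluster 17. Their main means were 1.03%, 0.764% and 0.989%, with SDs between libraries of 0.415, 1.32 and 1.16. All moves were under 1 SD. Leaving out 1 of 3 libraries cannot move a mean by 1 SD, so this is no check of stability. The fit with the number as a replicate block gave 35, 27 and 3 genes called higher and 1 lower in astroglial cells. The numbers are not known to pair samples (correlations of same-numbered libraries from -0.00491 to 0.481 in all barcodes), and the block changed no call. Few UMIs limit microglia, endothelium and every gene near 0 at P3.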

Other observations

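Barcodes that the annotation left out had a larger share of UMIs from the 35 genes than annotated astroglial cells in each library of 3m, and a smaller share in each library of P3. At 3m they numbered 852, 370 and 323 in replicates 1, 2 and 3, and the genes took 1.53%, 0.708% and 0.913% of their UMIs. At P3 the left-out barcodes numbered 92, 137 and 543, and the genes took 0.0407%, 0.0397% and 0.0587%. The median barcode of this kind had 0.181%, 0.294% and 0.543% at 3m and 0 in all libraries of P3.

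Cluster 21 of the study, with 68 cells at 3m alone, had the 35 genes at 0.187%, 0.112% and 0.0484% of UMIs. Against the oligodendrocyte level, Mbp was at 20.78%, 17.15% and 0.558% in this cluster, Mobp at 5.55%, 9.57% and 0, and Bcas1 at 12.8%, 0 and 0. Precursors of 3m (13 cells) had them at 0.283%, 0.300% and 0.369%, against 0.132%, 0.221% and 0.349% in the 94 precursors of P3. Of the 35 genes, 18 had a UMI in the 3m precursors and 24 in those of P3, in which the summed UMIs were 70421 and 594714.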
